A study of Homo sapiens with 17 samples.

Results

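SLC7A5, SLC7A11, SLC1A5 and SLC38A1 are 4 plasma membrane carriers that bring leucine, cystine and glutamine into cells. They were chosen by symbol from the authors' tables of PC3 cells depleted of MED25 or ETV4, with their decrease in those tables already known, and are 4 of the 1400 genes found in at least 1 of 4 tables. All values below are therefore descriptions of genes picked for their pattern, and no test was made of them.

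RNA was sequenced from early passage PC3 cells, an established human prostate cancer line, 7 days after infection with a virus carrying a short hairpin RNA (shRNA, here called a hairpin). Against MED25, a subunit of the Mediator complex that links transcription factors to RNA polymerase II, lentiviral hairpins A and B were used in 3 libraries each, with 3 libraries of cells carrying a lentiviral luciferase shRNA as their control. Against ETV4, an ETS-family transcription factor, retroviral hairpins A and B were used in 3 libraries each, with 2 libraries of cells carrying a retroviral control shRNA. The series design text instead names the control as an empty vector. Neither the cells kept after infection (a pool or a clone) nor separate cultures for the replicates are stated in the labels.

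Each table held 1 log2 ratio and 1 adjusted p score per gene, for 786 genes with MED25 hairpin A, 374 with MED25 hairpin B, 495 with ETV4 hairpin A and 98 with ETV4 hairpin B. Values per library were not analysed here, so no spread between replicates and no depth could be given. The direction of each ratio was read from the targeted gene, which was turned to be lower after knockdown; in that reading every listed gene was lower, by at least 1.5-fold. Ratios below are knockdown over control on the log2 scale. A gene missing from a table may have moved by less, moved upward, missed the score minimum or not been tested, and these cases cannot be told apart. The files hold no levels, so the identity of the cells could not be checked against markers, and none of 9 markers of other cell types or of other prostate cells was in any table. In bulk RNA, less RNA per cell and fewer cells that make it cannot be told apart.

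Cells short of amino acids activate the kinase GCN2, which phosphorylates eIF2 and so favours translation of the transcription factor ATF4. ATF4 binds amino acid response elements and raises genes for amino acid uptake, amino acid synthesis and tRNA charging. SLC7A5 (LAT1) exchanges glutamine for leucine and other large neutral amino acids, and SLC7A11 (xCT) exchanges glutamate for cystine, the precursor of glutathione. Each of these light chains pairs with the same heavy chain, SLC3A2 (CD98), which takes them to the cell surface. SLC1A5 (ASCT2) is a sodium-dependent exchanger of glutamine and small neutral amino acids, and SLC38A1 (SNAT1) takes up glutamine with sodium. Leucine uptake feeds the mTORC1 growth pathway, and prostate cancer cells are known to use LAT1 and ASCT2 for growth.

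All 4 transporters were in the table of MED25 hairpin A, and each was at least 2-fold lower than in the lentiviral control. Genes of this table made up 56.1% of the 1400 genes in any table, and 24.0% of the listed genes were at least 2-fold lower. Because the transporters were chosen with this contrast known, nothing is read from their share. The median over the 4 was −1.38 on the log2 scale, against −0.78 over all 786 genes of the authors' deposited table. None of the 4 was listed with MED25 hairpin B, whose table held 26.7% of the 1400 genes and in which 20.1% of the listed genes were at least 2-fold lower. SLC7A11 alone was listed with ETV4 hairpin A (35.4% of the 1400 genes, 23.2% of the listed genes at least 2-fold lower) and with ETV4 hairpin B (7.00% of the 1400 genes, 20.4% of the listed genes at least 2-fold lower).

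**Figure D1:**
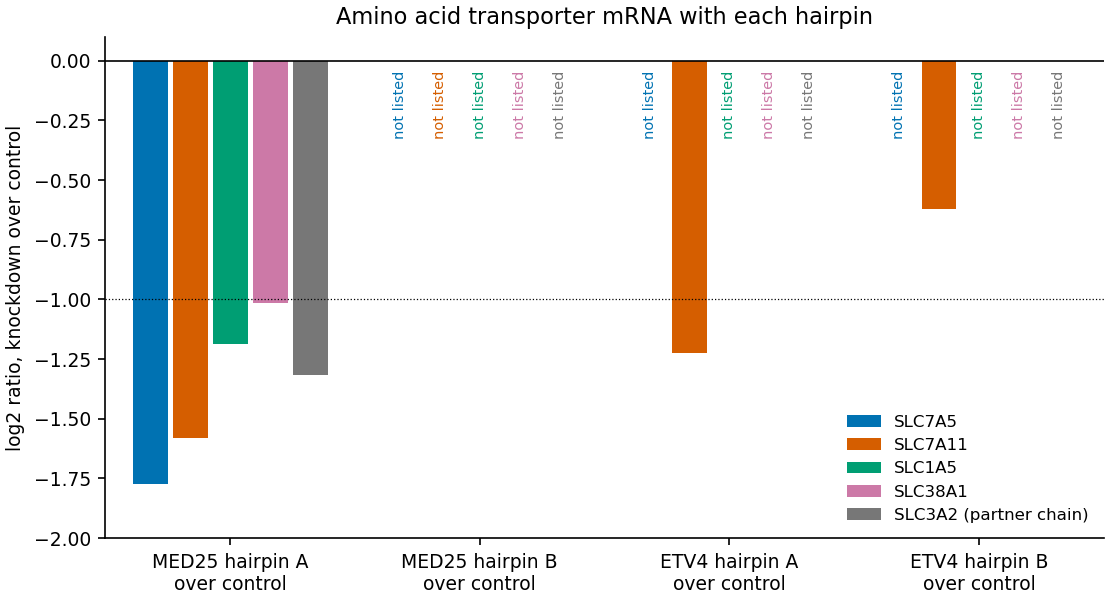
Log2 ratio of knockdown over control (vertical axis) for the 4 transporters and the partner chain SLC3A2 with each hairpin (groups of bars), from the authors' deposited tables; bars carry no error because the tables hold none, and the dotted line marks a 2-fold decrease. All 5 genes have a bar with MED25 hairpin A, between −1.77 and −1.01, none has one with MED25 hairpin B, and SLC7A11 has the only bars with the ETV4 hairpins.

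SLC7A5 (ENSG00000103257, chromosome 16, minus strand, protein coding), the leucine carrier, was the lowest of the 4. It was at −1.77 with MED25 hairpin A, or 29.2% of the lentiviral control, per the authors' deposited table. That placed it number 10 of 786 genes by size of decrease per the authors' deposited table. It was listed with no other hairpin. Its heavy chain SLC3A2 (ENSG00000168003) was at −1.32, or 40.1% of control, and number 64 of 786 per the authors' deposited table for MED25 hairpin A. SLC3A2 was likewise absent from the other 3 tables. Both chains of the leucine carrier were thus listed with MED25 hairpin A alone. SLC7A5 shared that pattern with 543 other genes of the 786, so nothing is read from the match. SLC3A2 is also the heavy chain of SLC7A11, which was listed with both ETV4 hairpins where SLC3A2 was not.

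The SLC7A5 value carries a limit set by near-identical copies of the gene. In GENCODE release 29, bases 67 to 603 of its 4537-base transcript matched SLC7A5P1 at 96.6% identity, and bases 67 to 602 matched SLC7A5P2 at 96.3% identity, both of them pseudogenes on chromosome 16. These stretches cover the start of the coding sequence, 11.8% of the transcript for each copy. Neither copy was in any table, and how reads that match several places were counted is not given in any source used here. The first 120 coding bases are shown to let the likeness be seen, with capitals at each base of a copy that differs from SLC7A5 (6 for SLC7A5P1 and 5 for SLC7A5P2).
SLC7A5: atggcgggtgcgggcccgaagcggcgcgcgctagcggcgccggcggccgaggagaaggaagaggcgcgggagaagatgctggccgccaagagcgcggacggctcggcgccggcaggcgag
SLC7A5P1: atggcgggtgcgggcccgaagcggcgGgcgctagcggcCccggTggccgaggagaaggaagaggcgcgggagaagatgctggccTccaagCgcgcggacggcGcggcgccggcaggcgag
SLC7A5P2: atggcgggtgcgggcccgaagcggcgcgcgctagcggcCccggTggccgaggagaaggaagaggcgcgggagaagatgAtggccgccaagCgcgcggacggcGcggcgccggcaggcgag

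SLC7A11 (ENSG00000151012, chromosome 4, minus strand, protein coding), the cystine carrier, was the only one of the 4 listed for both targets. It was at −1.58 with MED25 hairpin A, or 33.4% of the lentiviral control, number 20 of 786 per the authors' deposited table. With ETV4 hairpin A it was at −1.23, or 42.7% of the retroviral control, number 57 of 495 per the authors' deposited table. With ETV4 hairpin B it was at −0.62, or 64.9% of the retroviral control, number 84 of 98 per the authors' deposited table. It therefore stood among the larger decreases with both A hairpins and near the listing minimum with ETV4 hairpin B, where ETV4 itself was at 15.8% of control against 26.1% with ETV4 hairpin A per the authors' deposited tables. Both ETV4 comparisons share their 2 retroviral control libraries, so these are not independent readings, and no control library is shared with the MED25 comparison. The antisense gene SLC7A11-AS1 overlaps SLC7A11 on the opposite strand and was in no table; whether counting used strand is not given in any source used here.

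SLC1A5 (ENSG00000105281, chromosome 19, minus strand, protein coding), the glutamine exchanger, was at −1.19 with MED25 hairpin A, or 43.9% of the lentiviral control. It was number 103 of 786 per the authors' deposited table and was absent from the other 3. It overlaps the opposite-strand gene AC008622.2, which was in no table. SLC38A1 (ENSG00000111371, chromosome 12, minus strand, protein coding), the sodium-coupled glutamine carrier, was at −1.01, or 49.5% of control. It was number 178 of 786 per the authors' deposited table for MED25 hairpin A, just past a 2-fold decrease, and was absent from the other 3. The glutamine carriers were thus both listed with MED25 hairpin A and with neither ETV4 hairpin.

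**Figure D2:**
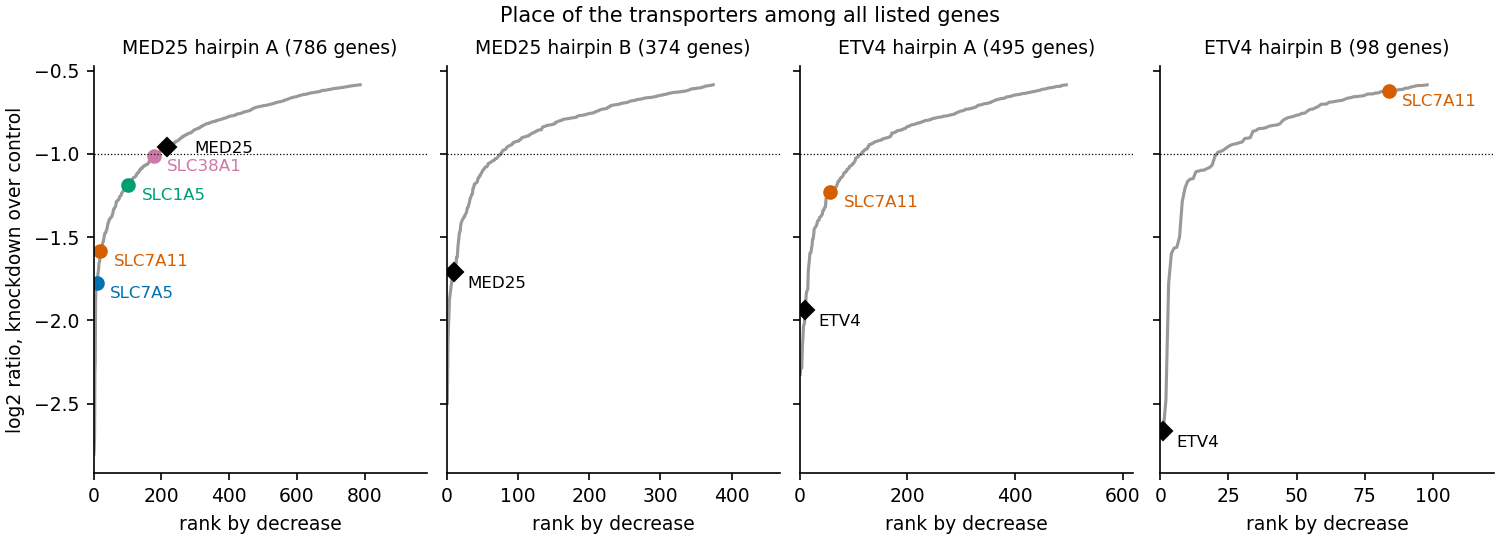
Log2 ratio of knockdown over control (vertical axis) against rank by decrease (horizontal axis, 1 for the largest decrease) for all listed genes of each authors' deposited table, one panel per hairpin, with the transporters as circles, the targeted gene as a diamond and a 2-fold decrease as a dotted line. SLC7A5 and SLC7A11 sit at ranks 10 and 20 of 786 with MED25 hairpin A, SLC1A5 and SLC38A1 at 103 and 178, and SLC7A11 moves to rank 57 of 495 and 84 of 98 with the ETV4 hairpins.

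Among themselves the 4 transporters spanned 0.76 log2 units with MED25 hairpin A. SLC7A5 lay 0.19 log2 units below SLC7A11, SLC7A11 lay 0.39 below SLC1A5, and SLC1A5 lay 0.17 below SLC38A1, per the authors' deposited table. With no error per gene, none of these neighbours can be said to differ beyond its spread. In the same comparison MED25 was at 51.6% of control, number 218 of 786, so all 4 transporters were lower than the targeted transcript itself per the authors' deposited table. With MED25 hairpin B, MED25 was at 30.5% of control per the authors' deposited table while none of the 4 was listed. Both MED25 comparisons share their lentiviral control libraries, and the difference between the hairpins was not tested.

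Order by adjusted p score differed from order by size. SLC38A1, the smallest decrease, had the highest score of the 4, at 135, number 154 of 786 per the authors' deposited table for MED25 hairpin A. SLC7A5 had a score of 75.5, number 343, and SLC7A11 one of 60.5, number 432, per the authors' deposited table. SLC1A5 had the lowest, at 40.3, number 592 per the authors' deposited table. The median score of that table was 67.6, so SLC7A11 and SLC1A5 lay below it. Scores of the 20 genes with the largest decrease ran from 54.4 to 950, with a median of 160, per the authors' deposited table; SLC7A11, CHAC1, NGFR and SLC4A10 were the 4 of them with a score under that of SLC7A5, the last 2 named after their values were seen. For SLC7A11 the score was 114 with ETV4 hairpin A, number 124 of 495, and 22.1 with ETV4 hairpin B, number 96 of 98, per the authors' deposited tables. The scale of the score is not given in any source used here, and it serves only to rank genes within a table.

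**Figure D3:**
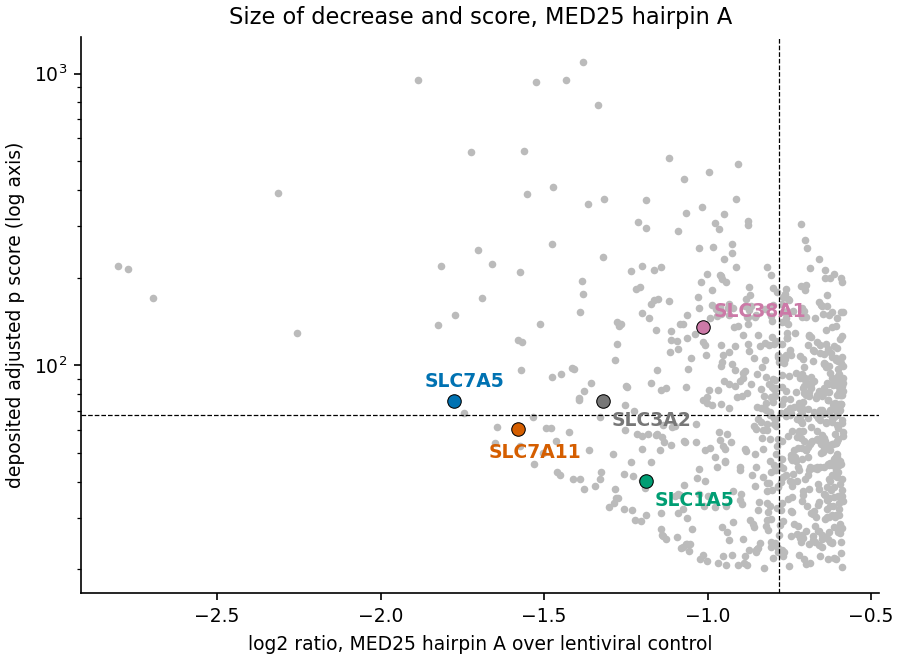
Adjusted p score (vertical log axis) against log2 ratio of MED25 hairpin A over lentiviral control (horizontal axis) for the 786 genes of the authors' deposited table, with the 4 transporters and SLC3A2 coloured and the table medians as dashed lines. SLC38A1 has the highest score of the 4 at 135 with the smallest decrease, while SLC7A5 at −1.77 has a score of 75.5 and SLC1A5 the lowest at 40.3.

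Of 32 other amino acid transporters, 4 were listed with MED25 hairpin A, all of them at least 2-fold lower, against 24.0% of listed genes. Their median was −1.32, against −0.78 over the authors' deposited table. SLC7A1 (CAT1), the carrier of arginine and lysine, was at −1.83, or 28.2% of control, number 7 of 786 and lower than SLC7A5 per the authors' deposited table. SLC1A4 (ASCT1), a neutral amino acid exchanger closely related to SLC1A5, was at −1.33 per the authors' deposited table. The heavy chain SLC3A2 given above and the glycine transporter SLC6A9, at −1.08 per the authors' deposited table, completed the 4. With ETV4 hairpin A, 2 of the 32 were listed, SLC7A1 at −0.60 and the glutamate transporter SLC1A3 at −0.74, per the authors' deposited table. None was listed with MED25 hairpin B or ETV4 hairpin B. Of the 1400 genes in any table, 56.1% were listed with MED25 hairpin A and 26.7% with MED25 hairpin B. For ETV4 hairpins A and B these shares were 35.4% and 7.00%. The other system L carriers SLC7A8 and SLC43A1, and SLC38A2, a glutamine carrier known as an ATF4 target, were in no table.

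Solute carriers as a whole were not confined to amino acids. Of 15 genes with an SLC symbol and number in the table of MED25 hairpin A, 8 were amino acid transporters, the 4 members among them, and all 8 were at least 2-fold lower. The remaining 7 were not on the list of amino acid transporters, and 4 of them were at least 2-fold lower. Of all listed genes, 24.0% were. The medians were −1.32 for the 8 and −1.14 for the 7, per the authors' deposited table. Because the 4 members were chosen with this contrast known, nothing is read from these counts. With ETV4 hairpin A, 3 of 9 such genes were amino acid transporters, and 1 of the 3, the chosen member SLC7A11, was at least 2-fold lower. Of the other 6, 2 were at least 2-fold lower, against 23.2% of all listed genes. None of the 2 listed with MED25 hairpin B was an amino acid transporter, and 1 of 3 listed with ETV4 hairpin B was, again SLC7A11.

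Of 20 regulators and stress targets of the ATF4 pathway, 16 were in any table and 9 were in both A tables. The A tables shared 112 of the 1400 genes in any table. They held 56.1% (MED25) and 35.4% (ETV4) of the 1400 genes, and the smaller B tables held 26.7% and 7.00%. ATF4, named after its value was seen, was at −1.38 with MED25 hairpin A and −0.79 with ETV4 hairpin A per the authors' deposited tables, and was absent from the tables of both B hairpins. Of the 20, 14 were listed with MED25 hairpin A and 12 of them were at least 2-fold lower, against 24.0% of all listed genes. The median of the 14 was −1.17, against −0.78 over the authors' deposited table. With ETV4 hairpin A, 11 were listed and 4 were at least 2-fold lower, against 23.2% of all listed genes. The median of the 11 was −0.91, against −0.79 over the authors' deposited table. Scores lay below the table median for 12 of the 14 with MED25 hairpin A and for 8 of the 11 with ETV4 hairpin A. CHAC1, which degrades the glutathione that cystine uptake serves to make, was at −1.65 with MED25 hairpin A and −2.11 with ETV4 hairpin A per the authors' deposited tables. SESN2, a leucine sensor that restrains mTORC1, was at −1.39 and −1.14 in the same order per the authors' deposited tables. TRIB3, a pseudokinase that dampens ATF4, was at −1.46 and −1.13, and JDP2, a basic leucine zipper repressor, at −1.45 and −1.07, per the authors' deposited tables. With MED25 hairpin B 1 of the 20 was listed and with ETV4 hairpin B none. ATF4 protein and its binding were not measured. This list was assembled with these values known, so its counts describe it and support nothing further.

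Of 16 enzymes of amino acid synthesis and linked metabolism, 8 were listed with MED25 hairpin A and the same 8 with ETV4 hairpin A. Their medians were −1.39 and −0.83 per the authors' deposited tables, and none of the 16 was listed with either B hairpin. All 8 were at least 2-fold lower with MED25 hairpin A, where 24.0% of all listed genes were. With ETV4 hairpin A 2 of the 8 were, near the 23.2% of all listed genes there. Medians over all listed genes were −0.78 and −0.79 in the same order, so the enzymes lay near the whole table with ETV4 hairpin A. Scores lay below the table median for 7 of the 8 with MED25 hairpin A and for 3 of the 8 with ETV4 hairpin A. The list was chosen with earlier results known, and the genes named below are those with its largest mean decreases. Asparagine synthetase (ASNS), a standard ATF4 target, was at −1.41 and −1.22, and CBS, which makes cysteine's precursor cystathionine, at −1.57 and −0.76, per the authors' deposited tables. The mitochondrial folate enzyme MTHFD2 was at −1.53 and −0.75 per the authors' deposited tables. PCK2, the mitochondrial phosphoenolpyruvate carboxykinase, was number 189 of 786 with MED25 hairpin A, the smallest decrease of at least 2-fold there, and was at −1.23 with ETV4 hairpin A, per the authors' deposited tables. Its score with MED25 hairpin A was 21.3, number 776 of 786 and near the lowest there, per the authors' deposited table. Across all genes, the tables of MED25 hairpin A and ETV4 hairpin A shared 112, which is 14.2% of the 786 and 22.6% of the 495.

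Cytosolic tRNA synthetases were listed with MED25 hairpin A in 13 of 20 cases, in a table with 56.1% of the 1400 genes in any table. The list was chosen with earlier results known, so nothing is read from its counts. Of the 13, 7 were at least 2-fold lower, against 24.0% of all listed genes. The 13 ran from −1.48 to −0.63, with a median of −1.09 against −0.78 over the authors' deposited table. With ETV4 hairpin A 1 of the 20 was listed, and with MED25 hairpin B 1, in tables with 35.4% and 26.7% of the 1400 genes. The synthetases with the largest mean decreases of the list are the charging enzymes for glycine, alanine, tyrosine and methionine. GARS was at −1.48, AARS at −1.25, YARS at −1.25 and MARS at −1.23, per the authors' deposited table for MED25 hairpin A.

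**Figure D4:**
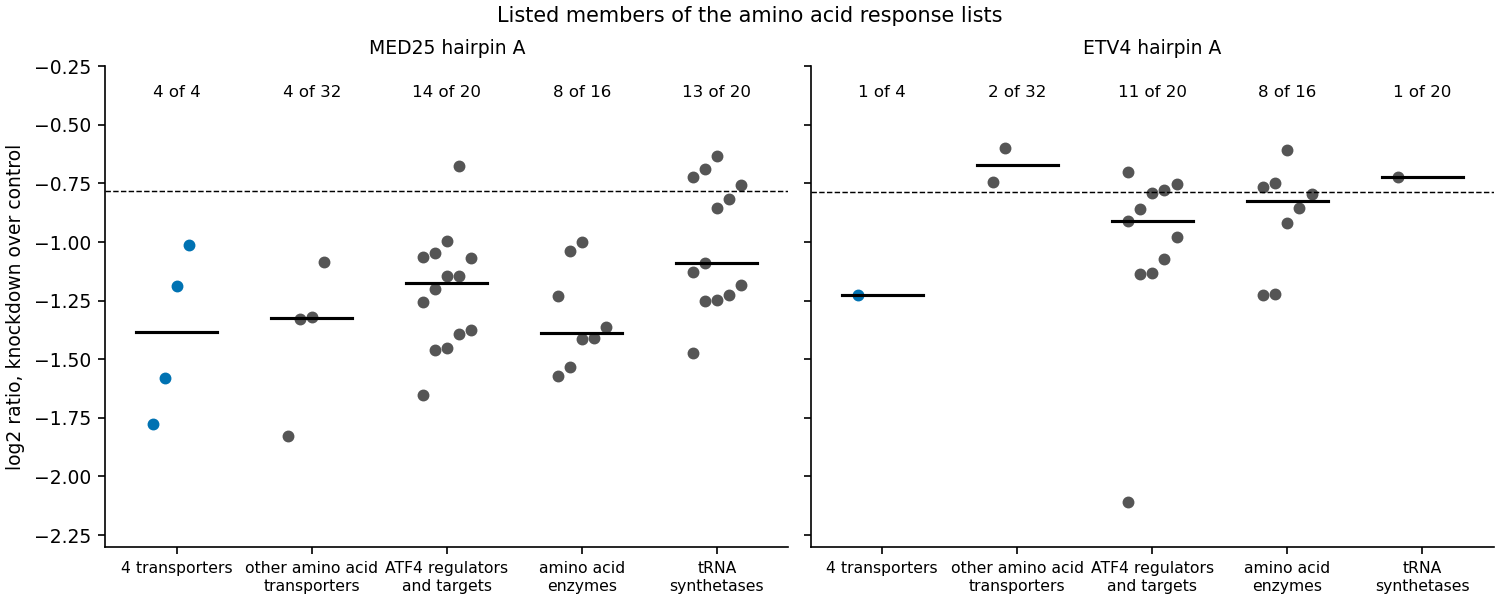
Log2 ratio of knockdown over control (vertical axis) for each listed member of 5 gene lists (horizontal axis) with MED25 hairpin A and ETV4 hairpin A, from the authors' deposited tables; short bars are list medians, the dashed line is the median of all listed genes, and the counts give listed members of all members. With MED25 hairpin A all 5 medians lie below the table median, and with ETV4 hairpin A the transporter and synthetase lists have 1 or 2 listed members each.

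Among glutathione and NRF2 genes, CHAC1 and SLC3A2, both given above, were listed with MED25 hairpin A, and CHAC1 with ETV4 hairpin A. The glutathione synthesis genes GCLC, GCLM and GSS and the NRF2 gene NFE2L2 were in no table. Among glutamine-using genes, ASNS and the mitochondrial aspartate aminotransferase GOT2, at −0.73 per the authors' deposited table, were listed with MED25 hairpin A. Of 16 genes of leucine sensing and mTORC1, SESN2 alone was listed, with both A hairpins. Of 7 genes for eIF2 kinases and eIF2 subunits, EIF2S2 alone was listed, at −0.91 with MED25 hairpin A per the authors' deposited table. The GCN2 gene EIF2AK4 was in no table. Of the 1400 genes in any table, 56.1% were listed with MED25 hairpin A and 35.4% with ETV4 hairpin A.

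The pattern of SLC7A11, listed with MED25 hairpin A, ETV4 hairpin A and ETV4 hairpin B and not with MED25 hairpin B, was shared by 9 other genes. By Euclidean distance over the 3 log2 ratios, the nearest was the lipid transporter gene ABCA8 at a distance of 0.29, with −1.39, −1.38 and −0.78 per the authors' deposited tables. SHISA3 followed at 0.50 and C4orf32 at 0.80. SLC7A5, SLC1A5 and SLC38A1 shared their single listing with 543 other genes, so nearness rests on 1 value. The nearest were ZNF518A, FZD8 and PRSS12 for SLC7A5, SKP1P1, HIST1H3B and TMEM180 for SLC1A5, and RP11-556K13.1, HIST1H3F and HSPA9 for SLC38A1, at distances of at most 0.071.

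Promoter windows were matched in RefSeq (GRCh38.p14) for 3 of the 4 members, SLC7A5 with 1 window, SLC1A5 with 3 and SLC38A1 with 2, 1 for each annotated start. They are given because these 3 carriers, like SLC7A11, were lower with MED25 hairpin A and because ATF4 and ETS factors bind known words. The core of the amino acid response element was searched as TGATGNAA on both strands, with its narrower form TTGCATCA, which is contained in it, and the ETS words were CCGGAAGT and GGAA, the second contained in the first. In the 250 bases upstream of a start, TGATGNAA was present in 1 of the 6 member windows, against 3.14% of all 35116 windows, and TTGCATCA in the same 1, against 0.772%. CCGGAAGT was in none of the 6, against 3.42% of all windows, and GGAA in all 6, against 92.7%.

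The upstream bases of SLC7A5 (chr16:87869508-87869757, minus strand) held neither form of the response element, and 79.6% of them were G or C. Capitals mark GGAA or its reverse complement.
SLC7A5: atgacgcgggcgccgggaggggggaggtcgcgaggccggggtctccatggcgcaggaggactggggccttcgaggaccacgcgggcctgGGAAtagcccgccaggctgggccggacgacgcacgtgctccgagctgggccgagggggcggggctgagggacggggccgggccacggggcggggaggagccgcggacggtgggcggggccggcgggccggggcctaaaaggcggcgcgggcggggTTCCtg
The outermost start of SLC1A5 (chr19:46788595-46788844, minus strand) was also without the response element in its upstream bases, and capitals again mark GGAA on either strand.
SLC1A5: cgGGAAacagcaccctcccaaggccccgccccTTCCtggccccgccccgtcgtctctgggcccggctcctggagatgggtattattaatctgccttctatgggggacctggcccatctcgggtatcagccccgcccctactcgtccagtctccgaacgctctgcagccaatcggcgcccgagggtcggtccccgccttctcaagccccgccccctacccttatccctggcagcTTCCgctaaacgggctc

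A response element word was found at an inner start of SLC1A5, 97 to 90 bases upstream, inside the gene, where GENCODE release 29 places it in an intron of the full-length transcript and at the first exon of a shorter one. SLC38A1 had 1 match at an inner start, from 4 bases before to 4 bases after it, which is not wholly upstream. Both are shown as 30 bases on the minus strand, chr19:46784893-46784922 for SLC1A5 and chr12:46266502-46266531 for SLC38A1, with the match in capitals.
SLC1A5: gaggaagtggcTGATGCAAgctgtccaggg
SLC38A1: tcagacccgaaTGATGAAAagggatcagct
Among the other listed transporters, SLC1A4 held TTGCATCA from 7 bases before its start to the first base of the transcript, and SLC1A3 held its reverse complement 220 to 213 bases upstream of 1 start. SLC3A2 and SLC7A1 held TGATGNAA only downstream of the start. A match is a description of letters in these windows and not a site of binding, and a window without one says nothing of elements elsewhere in the gene.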

How the data were processed

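RNA-seq of 17 libraries was deposited as 4 tables of the authors' own comparisons. The submitters' processing notes name Novoalign 3.08.02 and the build hg19. Counting, use of strand, scaling and the test are not given in any source used here. Per the file headers, the authors deposited a log2 ratio and an adjusted p for each gene. The adjusted p deposited by the authors exceeded 20 in every row, on a scale the headers do not state, and was treated as a score for ranking. Ratios were turned by the sign of the targeted gene, which reversed the MED25 tables, so the decrease of MED25 and ETV4 is no check of direction. Percent of control is 2 to the power of the ratio. The members and gene lists were chosen with earlier results of these data known.

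Named genes were the members, the targets, SLC3A2, listed transporters of the list, up to 4 members per list with the largest mean decrease, and 3 nearest genes by Euclidean distance per member. Alternatives were absolute log2 minimums of 0.8, 1 and 1.2, a score of at least 50, older symbols and the whole promoter window. Protein identity was not computed, and some list members are not reported here. SLC7A5 copies were aligned with blastn 2.17.0+. Python 3.11.15, pandas 2.3.3, numpy 2.4.6 and matplotlib 3.10.9 were used, and the motif and distance searches were tested on simulated data.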

Additional observations from a re-analysis of the deposited data

How the results depend on the processing

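The number of the 4 transporters at least 2-fold lower with MED25 hairpin A was 2 in place of 4 at a log2 minimum of 1.2. SLC1A5 at −1.19 and SLC38A1 at −1.01 missed that minimum. The number listed with ETV4 hairpin B was 0 in place of 1 both at a log2 minimum of 1 and at a score of at least 50, so the listing of SLC7A11 there rests on a value near both minimums. Members with TGATGNAA were 2 in the whole promoter window in place of 1 upstream, the added one being SLC38A1. The other 56 values were the same or within 1.5 times, gene lists matched by older symbols included. With a score of at least 50, SLC1A5 left the table of MED25 hairpin A and the other 3 stayed. No paired analysis was possible because the tables carry no columns for single libraries, and for the same reason no replicate could be left out. The tables give no depth or error, and the edgeR fit planned for counts was not run.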
